A study of Mus musculus with 23 samples.

Results

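The G3bp2 locus was followed through 10 sequenced libraries of RNA crosslinked to and immunoprecipitated with protein (CLIP) from mouse embryonic stem cells. It was taken as the minus strand of chromosome 5 from 92481000 to 92513000 on mouse build mm9, and it is 1 gene of the whole series. Every distinct alignment with its midpoint in this interval belonged to it, which gave 471 of the 366484 distinct alignments in the 10 libraries, or 0.129%. The locus was chosen on its number of alignments over all libraries, and its most covered part, 92481418 to 92484075, was chosen on the same values. The total and the height of that part are therefore given as a description and were not tested. Of the 471 alignments 396 were from untreated libraries, and of the 355 in that part 314 were. The choice thus leaned towards untreated libraries. Treatment comparisons of the locus and of the part below carry that limit.

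G3bp2 encodes an RNA-binding protein that works with its paralogue G3bp1 in the assembly of stress granules, the cytoplasmic bodies that gather untranslated messenger RNAs when translation initiation stalls. Upf1 is an RNA helicase that acts in nonsense-mediated mRNA decay, the pathway that removes messenger RNAs on which ribosomes terminate too early. Upf1 binds RNA with little sequence preference, and translating ribosomes are known to displace it from coding sequence. Cycloheximide blocks translation elongation and leaves ribosomes on the message. CLIP joins protein to RNA with ultraviolet light, so that the fragments recovered with an antibody can be placed on the genome, and control IgG measures what is recovered without the specific antibody.

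The cells were the v6.5 line, grown on feeder cells that were depleted by pre-plating, and all were irradiated at 254 nm with 400 mJ/cm2. The 4 groups were a rabbit antibody against Upf1 or rabbit control IgG, each from untreated cells (libraries A1, A2 and I) and from cells given cycloheximide at 100 µg/ml for 2 hours (libraries A1 and A2). The labels name no genetic change in these cells, and nothing in them says that the libraries of a group were separate cultures. The p-values below therefore cover the spread between libraries, which may be technical. The series' 10 mRNA-seq and 3 ribosome footprinting samples are not analysed here, so the CLIP values could not be set against the abundance of the G3bp2 message.

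Libraries held 7215 to 97651 distinct alignments. The longest common read was 34 nt in both untreated libraries labelled I and in Upf1 untreated A1, and 38 nt elsewhere, so every library with 34 nt reads was untreated, and no cycloheximide library was labelled I. Libraries also shared molecules, meaning the same alignment with the same 2 random adapter letters. At G3bp2, 87.5% of the 24 molecules in the IgG cycloheximide libraries and 34.9% of the 63 in the Upf1 cycloheximide libraries also stood in another library, against 4.38% of 365 in Upf1 untreated and 7.5% of 160 in IgG untreated. The untreated values differed by library: 27.8% of 18 in Upf1 untreated A2, 72.7% of 11 in IgG untreated A2 and 0% of 23 in IgG untreated A1. In the libraries with 34 nt reads it was 2.79% to 3.57%, and these supplied most untreated molecules. Sharing was thus not confined to cycloheximide libraries, and leaving shared molecules out removes them unevenly. The part of read length in this was not tested. Upf1 cycloheximide A2 and IgG cycloheximide A2 had 10 molecules in common. For the locus rate, the share at the 3′ end, the positions along the gene, the regions and the window that led with cycloheximide, values are also given with these molecules left out.

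The 471 alignments filled the 3′ end of the gene and left most of the rest empty. The most covered part, 2658 nt or 8.31% of the locus, held 355 of them (75.4%). Of 320 windows of 100 nt, 83 held an alignment, and the longest unbroken run was 29 windows, from 92481200 to 92484099, with 375 alignments. Just inside the 5′ edge of the most covered part lay 60 alignments in 500 nt, and the 500 nt just outside held 7. On the other side the fall was less steep, with 36 alignments in the 500 nt inside the 3′ edge and 20 in the 418 nt outside it. No alignment lay on the opposite strand, 4 lay in the 10000 nt beyond the 3′ edge of the locus, and 1 lay in the 10000 nt beyond the 5′ edge. The signal was thus stranded and ended with the locus.

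Splicing placed this stretch within the gene. A splice-spanning alignment is one that covered more than 60 nt of genome, and there were 7. The one nearest the 3′ end ran from 92484071 to 92484434 in IgG untreated I, so that its 3′ side overlapped the 5′ edge of the most covered part. Every other spliced span lay further 5′. Spans from 92484506 to 92485298 in Upf1 cycloheximide A1 and from 92484520 to 92485319 in Upf1 untreated I crossed the same stretch. The remaining 4 alignments ended at 92502199 and began at 92499454 or 92499455. No spliced span lay inside the most covered part, which runs 3′ of all junctions seen here. No gene models of build mm9 were used, so the part was not assigned to coding or untranslated sequence.

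Spliced alignments were few in every library. They numbered 3 of 22 in Upf1 cycloheximide A1 (13.6%, Wilson 95% interval 4.75% to 33.3%), 1 of 30 in Upf1 cycloheximide A2, 1 of 5 in IgG cycloheximide A1, 1 of 155 in Upf1 untreated I and 1 of 96 in IgG untreated I. The other 5 libraries held none. In total, 5 of 75 alignments were spliced with cycloheximide and 2 of 396 without. The alignment from 92499455 to 92502199 carried the same letters in 3 cycloheximide libraries, and with shared molecules left out the counts were 2 spliced alignments with cycloheximide and 2 without. Library-wide, 4.30% to 5.78% of alignments were spliced in the cycloheximide libraries and 0.845% to 1.81% in the untreated ones.

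The locus was recovered with IgG as with the Upf1 antibody. Its rate is the number of distinct alignments per 100000 of the library. In untreated Upf1 libraries it was 123 in A1 (120 alignments, Wilson 95% interval 103 to 147), 53.8 in A2 (11 alignments, 30.0 to 96.3) and 174 in I (155 alignments, 148 to 203). In untreated IgG libraries it was 58.3 in A1 (6 alignments, 26.7 to 127), 96.7 in A2 (8 alignments, 49.0 to 191) and 201 in I (96 alignments, 165 to 246). The library labelled I was the highest of its group for both antibodies, and the ranges of the antibodies overlapped. The intervals cover counting error only.

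Cycloheximide libraries gave rates in a narrower band. The rate was 69.2 in Upf1 A1 (22 alignments, Wilson 95% interval 45.7 to 105) and 87.7 in Upf1 A2 (30 alignments, 61.4 to 125). It was 69.3 in IgG A1 (5 alignments, 29.6 to 162) and 91.3 in IgG A2 (18 alignments, 57.8 to 144). All 4 values lay inside the range of the untreated libraries.

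Group means were 117 ± 60.2 (SD, n = 3) for Upf1 untreated, 119 ± 74.1 (SD, n = 3) for IgG untreated, 78.4 ± 13.1 (SD, n = 2) for Upf1 cycloheximide and 80.3 ± 15.6 (SD, n = 2) for IgG cycloheximide. The mean over the 5 Upf1 libraries minus that over the 5 IgG libraries was -1.94, which did not pass an exact two-sided permutation test within treatments (p = 0.867, Benjamini-Hochberg adjusted over the 4 locus tests p = 0.867). The mean of the cycloheximide libraries minus that of the untreated libraries was -38.4 (exact two-sided permutation within antibodies, p = 0.32, adjusted p = 0.64). Among libraries with 38 nt reads alone, that difference was 9.78, of the opposite sign. With A1 and A2 libraries only it was -3.54, without IgG untreated I it was -21.7, and with every line counted it was -64.8 (exact permutation p = 0.06, adjusted p = 0.24). With shared molecules left out it was -59.4, and the Upf1 minus IgG difference was -17.0 (exact permutation adjusted p = 0.3 and 0.617). The Upf1 minus IgG difference also turned sign, to 4.49, with A1 and A2 libraries only. The read length moved with the rate, and its part in the result was not tested. Both differences were smaller than the largest SD between libraries of 1 group.

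**Figure D1:**
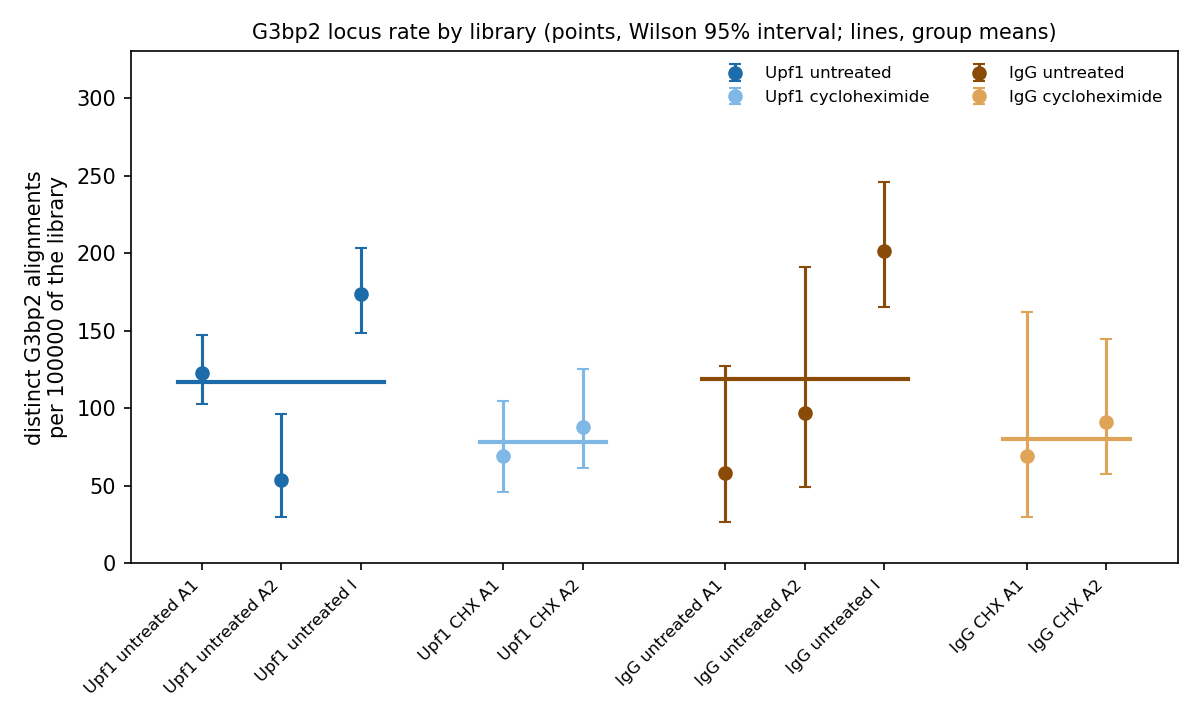
Distinct G3bp2 alignments per 100000 distinct alignments of each of the 10 libraries (CHX, cycloheximide). Points are libraries with Wilson 95% intervals and horizontal lines are group means; both libraries labelled I sit highest, at 174 and 201, and the Upf1 and IgG groups overlap.

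Within the locus, the share of alignments in the most covered part was lower in most cycloheximide libraries. Among untreated libraries it was 87.5% in Upf1 A1 (105 of 120), 72.7% in Upf1 A2 (8 of 11) and 76.1% in Upf1 I (118 of 155). With IgG it was 100% in A1 (6 of 6), 62.5% in A2 (5 of 8) and 75% in I (72 of 96). With cycloheximide it was 77.3% in Upf1 A1 (17 of 22), 43.3% in Upf1 A2 (13 of 30), 40% in IgG A1 (2 of 5) and 50% in IgG A2 (9 of 18). Of the cycloheximide libraries, 3 lay below every untreated library, and Upf1 A1 lay among the untreated values.

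The mean share was 79.0% ± 13.0 (SD, n = 6) in untreated and 52.7% ± 16.9 (SD, n = 4) in cycloheximide libraries. The difference was -26.3 percentage points (exact two-sided permutation test within antibodies, p = 0.05). After Benjamini-Hochberg adjustment over the 4 locus tests the exact p was 0.2, so the difference did not pass the threshold of 0.05. Of the 100 regroupings, the smallest p possible was 0.01. The part was chosen on alignments that were mostly untreated (314 of 355), which favoured a lower cycloheximide share in advance. The p-values of this difference, also with the part altered, are therefore a description and support no change. Shortening the part by 1000 nt on its 5′ side left the windows nearest that edge outside it. The difference was then -25.4 points and fell under the threshold (exact permutation p = 0.01, adjusted p = 0.04). With the part lengthened by 1000 nt on that side, it was -26.8 points and did not pass (exact permutation p = 0.02, adjusted p = 0.08). With the part as first defined, the Upf1 minus IgG difference was 5.89 points (exact permutation p = 0.533, adjusted p = 0.711). Without shared molecules the pooled share was 79.5% of 380 untreated and 57.9% of 38 cycloheximide alignments. The part then held 12 of 15 alignments in Upf1 cycloheximide A1 (80%) and 10 of 20 in Upf1 cycloheximide A2 (50%). The IgG cycloheximide libraries then held 0 of 1 and 0 of 2 alignments in it. Upf1 cycloheximide A1 thus did not share the lower pooled value.

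The mean rate inside the part was lower with cycloheximide, and that outside it was higher by less than the SD of either treatment. The rate inside the part averaged 91.4 ± 45.3 (SD, n = 6) in untreated and 41.2 ± 11.0 (SD, n = 4) in cycloheximide libraries. The rate in the rest of the locus, on both sides of the part, averaged 26.4 ± 19.3 (SD, n = 6) and 38.2 ± 15.3 (SD, n = 4). The ranges overlapped in both places: inside the part, Upf1 untreated A2 stood at 39.1 and Upf1 cycloheximide A1 at 53.5. Pooled over libraries, the rest of the locus held 34 cycloheximide and 82 untreated alignments. The ratio of these rates was 1.22 (exact counting interval 0.793 to 1.84), which does not exclude equal rates outside the part. The rates inside and outside the part were not tested and were not recomputed without shared molecules.

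**Figure D2:**
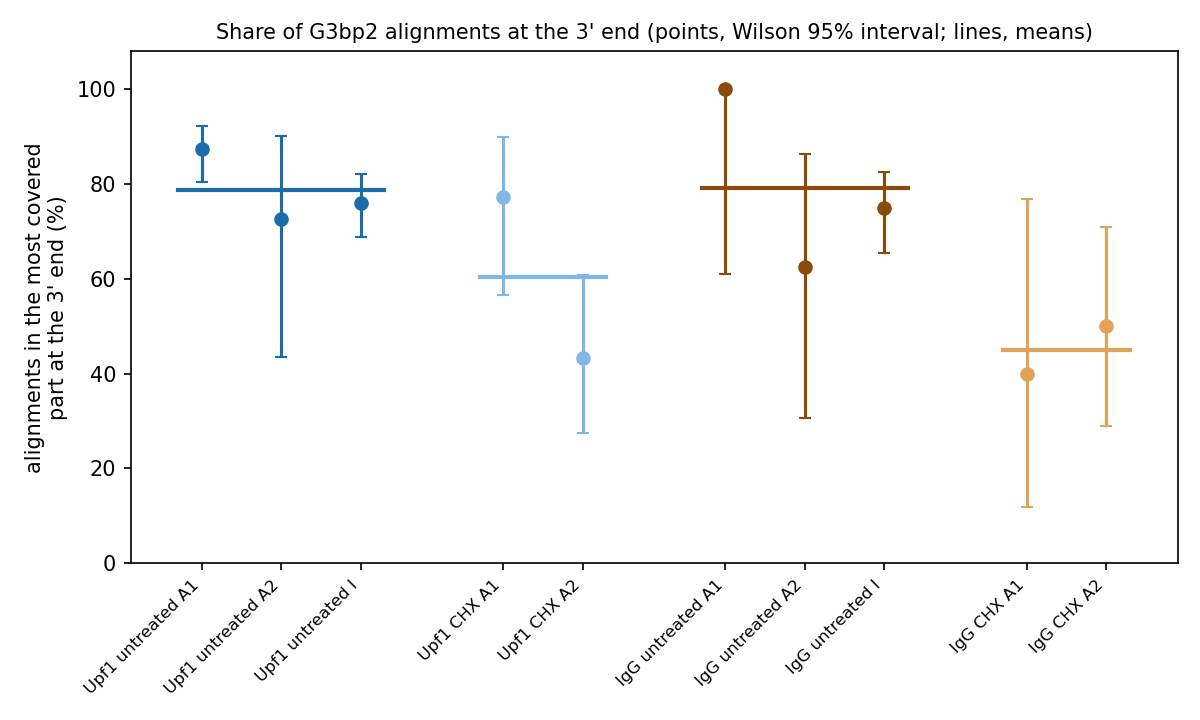
Share of the G3bp2 alignments of each library that lay in the most covered part at the 3′ end, in percent (CHX, cycloheximide). Points are libraries with Wilson 95% intervals and horizontal lines are group means; 3 of 4 cycloheximide libraries, at 40% to 50%, sit below every untreated library, and Upf1 cycloheximide A1 at 77.3% does not.

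The 100 nt profile showed where the groups placed their alignments. In untreated cells the signal was broad. The window from 92482700 to 92482799 was the highest in Upf1 untreated, with 22 alignments (13 in A1, 0 in A2 and 9 in I), or 10.6 per 100000 of the group. The windows starting at 92482900 and 92483500 followed with 19 each. IgG untreated had 9 alignments in each of the windows starting at 92482500, 92483000 and 92483500. The windows starting at 92483000 and 92483500 thus ranked in the first 4 with both antibodies. The windows were ranked on these same counts, so their heights are a description.

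With cycloheximide a different window stood highest in Upf1. It ran from 92483900 to 92483999, within 200 nt of the 5′ edge of the most covered part and next to the spliced span described above. It held 11 Upf1 cycloheximide alignments (7 in A1 and 4 in A2), or 16.7 per 100000, and 2 Upf1 untreated alignments (1 in A1, 0 in A2 and 1 in I), or 0.965 per 100000. IgG had 3 with cycloheximide (1 in A1 and 2 in A2) and 1 without (in I). For Upf1 the ratio was 17.3, with an exact counting interval of 3.77 to 160. The window was picked for this height, so the ratio and its interval are a description and test no change. The 17 alignments had 12 different positions and were 21 to 38 nt long. With shared molecules left out, the window held 6 cycloheximide alignments, all from Upf1 (3 in A1 and 3 in A2), and 3 untreated ones.

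The opposite held for the windows that led in untreated Upf1. Those starting at 92482700 and 92482900 held 25 untreated alignments each over both antibodies and none in any cycloheximide library. This was at least 2.83-fold fewer against a floor of 3 counts over the group. All 25 in each window came from libraries with 34 nt reads, and the untreated libraries with 38 nt reads also held none. Those untreated 38 nt libraries held only 11 (Upf1 A2), 6 (IgG A1) and 8 (IgG A2) G3bp2 alignments, so few could be seen in any window. The windows thus split the libraries by read length and by depth, and the part of the treatment was not tested. The window starting at 92483000 held 25 untreated and 2 cycloheximide alignments, a ratio of 4.25 (exact counting interval 1.06 to 37.0). The window starting at 92483500 held 28 untreated and 4 cycloheximide alignments (2.38, interval 0.832 to 9.33), which does not exclude equal rates. All these windows were picked for their height in 1 group, so the ratios and intervals are a description and test no change. The intervals cover counting error only, not the spread between libraries.

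The other windows named by rank were low. In Upf1 cycloheximide the windows starting at 92482400, 92482500 and 92483700 held 3 alignments each, and those starting at 92492400 and 92500800, far from the 3′ end, also held 3. Neither of the far windows held an untreated alignment. All 3 Upf1 alignments at 92492400 were from A2, and at 92500800 they were spliced ones, whose midpoints fall between their ends. In IgG cycloheximide the windows starting at 92482400 and 92482800 held 2 each.

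**Figure D3:**
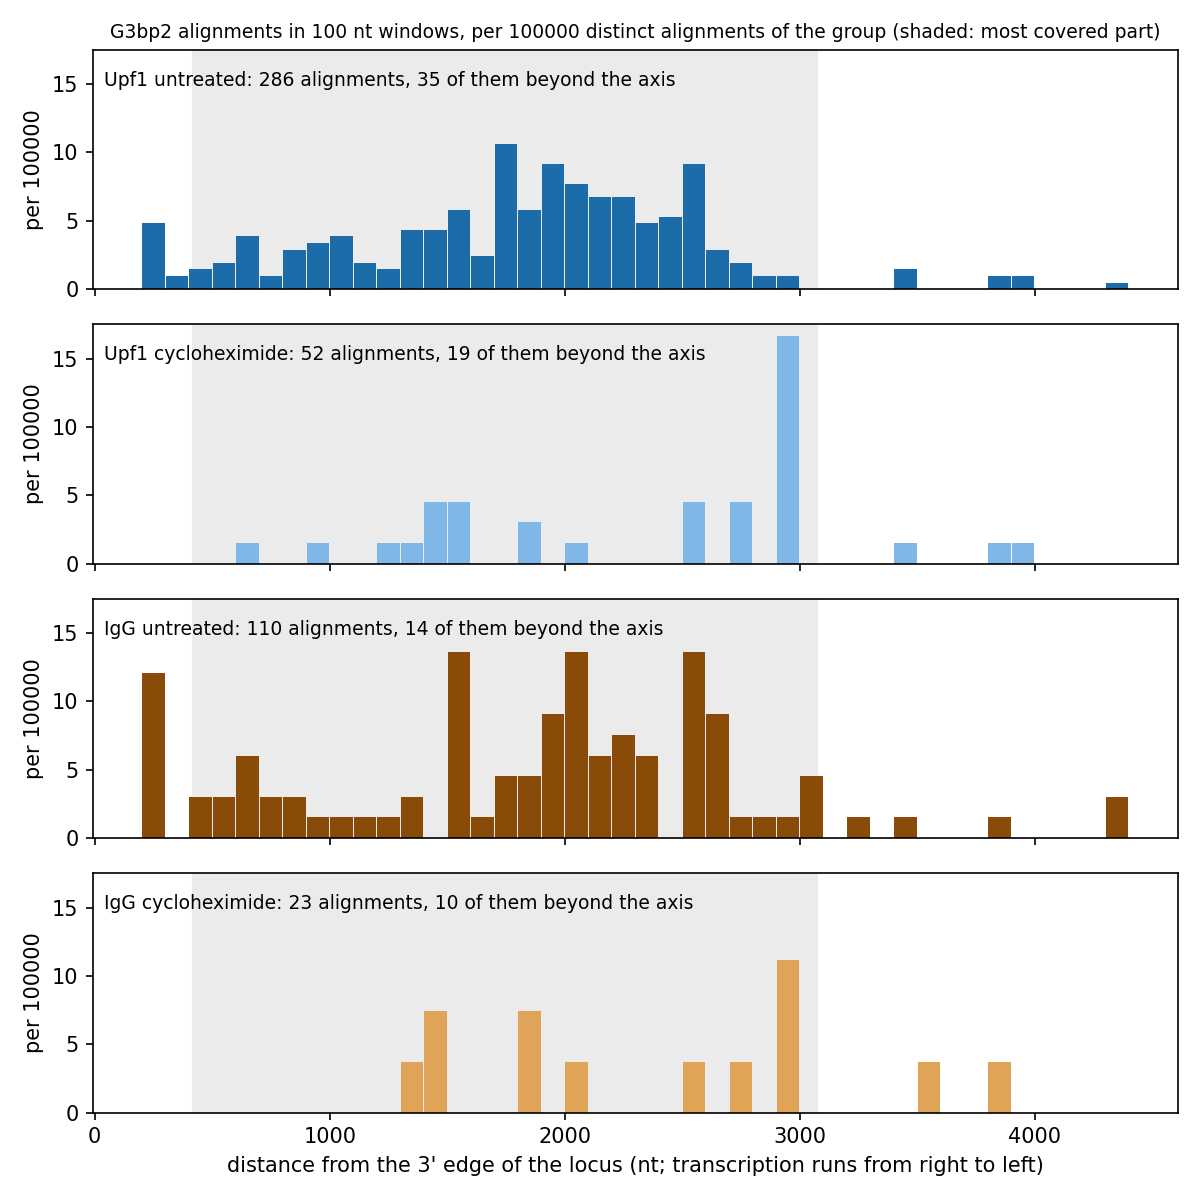
Alignments per 100 nt window over the first 4500 nt from the 3′ edge of the locus, per 100000 distinct alignments of each group. Bars are pooled over the libraries of a group and shading marks the most covered part; the untreated groups fill it broadly, and the tallest Upf1 cycloheximide bar, at 2900 nt, reaches 16.7.

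Along the gene, unspliced alignments of the cycloheximide libraries lay further from the 3′ edge. The median distance was 1976.5 nt in Upf1 untreated, 2029.5 nt in IgG untreated, 2949 nt in Upf1 cycloheximide and 3250 nt in IgG cycloheximide. By library the median ran from 1803 nt (6 alignments) to 2514 nt (8 alignments) in untreated libraries. In cycloheximide libraries it ran from 2593 nt (19 alignments) to 7682 nt (4 alignments). These did not overlap, but the nearest values, 2514 and 2593 nt, lay close together and rest on few alignments. The share beyond 4000 nt was 12.6%, 14.7%, 33.3% and 40.9% in the same order of groups. Upf1 cycloheximide A1 departed from the other cycloheximide libraries, with 10.5% beyond 4000 nt against 38.9% to 50%. The outermost 1500 nt held 34.4% of the alignments of Upf1 untreated I, 26.3% of IgG untreated I and 15.8% of Upf1 untreated A1. With shared molecules left out, the median distance was 2010 nt for 378 untreated and 2941 nt for 36 cycloheximide alignments, and 13.0% and 30.6% lay beyond 4000 nt. Of those 36, 33 were from Upf1, with a median of 2907.5 nt, and 3 were from IgG, too few to place. These distances and shares were not tested, since they describe the same shift as the share above.

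Beyond 4000 nt, the gene body was covered thinly. There, 81 alignments lay in 49 windows, of which 36 held 1 alignment, and the fullest held 13. That window, starting at 92493400, matched a merged region from 92493401 to 92493511. With cycloheximide, the region held 2 alignments in each A1 library and 3 in each A2 library. Without it, the region held 1 in Upf1 untreated A1, 1 in IgG untreated A2, 1 in IgG untreated I, and none in the other libraries. Every cycloheximide library thus held at least 2 and no untreated library more than 1. Those 13 alignments had 7 different positions.

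Merged regions allowed a test across the transcriptome. A region is a set of unspliced alignments on the same strand at most 50 nt apart, tested if it held at least 10 alignments in at least 3 libraries, which left 2357 regions. Of 46 G3bp2 regions, 3 passed: the most covered part, the region of 13 alignments just described, and one from 92481188 to 92481335 with 20 alignments. The filter runs over all libraries, and the 43 others were too thin to test. The region of 13 alignments held 10 of them in cycloheximide libraries, and that of 20 held all in untreated libraries, so each passed through the group where it is high. Their cycloheximide values are therefore a description, whatever p the fit gives. The most covered part was the 5th of the 2357 regions by alignments and the 3rd widest, 6th in Upf1 untreated, 9th in IgG untreated, 10th in Upf1 cycloheximide and 30th in IgG cycloheximide, which is again the measure it was chosen on.

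None of the 3 regions passed the adjusted threshold of 0.05 in limma-voom in any comparison. For Upf1 against IgG this was 0 of 3, beside 0% of all tested regions (at an unadjusted p under 0.05, 45 were higher and 33 lower; limma with a trended prior called 0 of the 3 as well). For cycloheximide against untreated in Upf1 it was 0 of 3 beside 4.12% of all regions. In IgG it was 0 of 3 beside 0.0424%, and for the difference of the cycloheximide change between antibodies 0 of 3 beside 0%. With 3 members, these counts cannot be told from the background shares.

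The most covered part had a log2 change of 1.00 (SE 0.81, limma-voom adjusted p = 0.999) for Upf1 over IgG, beside a median of 0.09 over all regions. With library totals in place of trimmed-mean scaling it was 0.05, and with 1 library left out it ran from 0.49 to 1.53. For cycloheximide over untreated it was -0.70 in Upf1 (SE 1.21, adjusted p = 0.753), beside a median of -0.62. In IgG it was -1.32 (SE 1.23, adjusted p = 0.872), beside a median of -0.25. The IgG value was -0.33 without IgG untreated I, -0.35 without IgG cycloheximide A1 and -0.026 with only 38 nt libraries. The 95% intervals were wide, -3.07 to 1.68 in Upf1 and -3.73 to 1.09 in IgG, and the difference between antibodies was 0.62 (-2.75 to 4.00). Per 100000 unspliced alignments its values ran from 39.6 to 153 in untreated and from 29.4 to 56.3 in cycloheximide libraries. Without Upf1 untreated I the log2 change in Upf1 was 0.18, of the opposite sign.

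Leaving out shared molecules moved the fitted values of this part more than any other setting for Upf1 over IgG, for cycloheximide in IgG and for the difference between antibodies. Both IgG cycloheximide libraries then held 0 alignments in the part, so these fitted changes depend on the offset and are no bounds. Over 1772 regions, the log2 change was 2.04 for Upf1 over IgG (SE 0.73, limma-voom adjusted p = 0.83), where the median of all regions was -0.22. For cycloheximide it was -3.40 in IgG (SE 0.93, limma-voom adjusted p = 0.29), the lowest p of the 1772 regions, and -0.52 in Upf1 (SE 1.20, adjusted p = 0.869). The difference between antibodies was 2.88 (SE 1.51, limma-voom adjusted p = 0.736). None of these passed the threshold.

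The region from 92493401 to 92493511 had the lowest adjusted p of the 3. Its log2 change with cycloheximide was 3.10 in Upf1 (SE 1.04, limma-voom adjusted p = 0.0582) and 1.66 in IgG (SE 1.04, adjusted p = 0.801), and the difference between antibodies was 1.43 (-1.44 to 4.31). Summed over libraries, the Upf1 counts were 5 of 62933 with cycloheximide and 1 of 205133 without, a ratio of 16.3 with an exact counting interval of 1.82 to 771. The IgG counts were 5 of 25647 and 2 of 65419, a ratio of 6.38 (1.04 to 67.0). Because the region entered through the cycloheximide libraries, every ratio, interval and p-value given for it is a description and supports no change. The adjusted p in Upf1 fell under 0.05 in 4 alternatives, and the cause was not tested. It was 0.0116 without IgG untreated A1, 0.0315 without IgG untreated I, 0.0419 without IgG cycloheximide A2 and 0.0393 with libraries paired by label. Over 19 alternatives that kept the region it ran from 0.0116 to 0.792. Of the 12 molecules of the cycloheximide libraries here, 10 stood in more than 1 library. Without these, 2 cycloheximide and 3 untreated alignments remained and the region was too thin to test.

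The region from 92481188 to 92481335, 3′ of the most covered part, was found in untreated libraries alone. It held 10 alignments in Upf1 untreated I, 8 in IgG untreated I, 1 in Upf1 untreated A1 and 1 in Upf1 untreated A2. Each of the 20 had its own position, and none of its molecules was shared between libraries. Of its alignments, 18 came from the libraries labelled I, which have no cycloheximide counterpart, so the label and the treatment cannot be told apart here. No fold is given, since the region entered through the untreated libraries. The limma-voom adjusted p with cycloheximide was 0.351 in Upf1 and 0.872 in IgG.

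**Figure D4:**
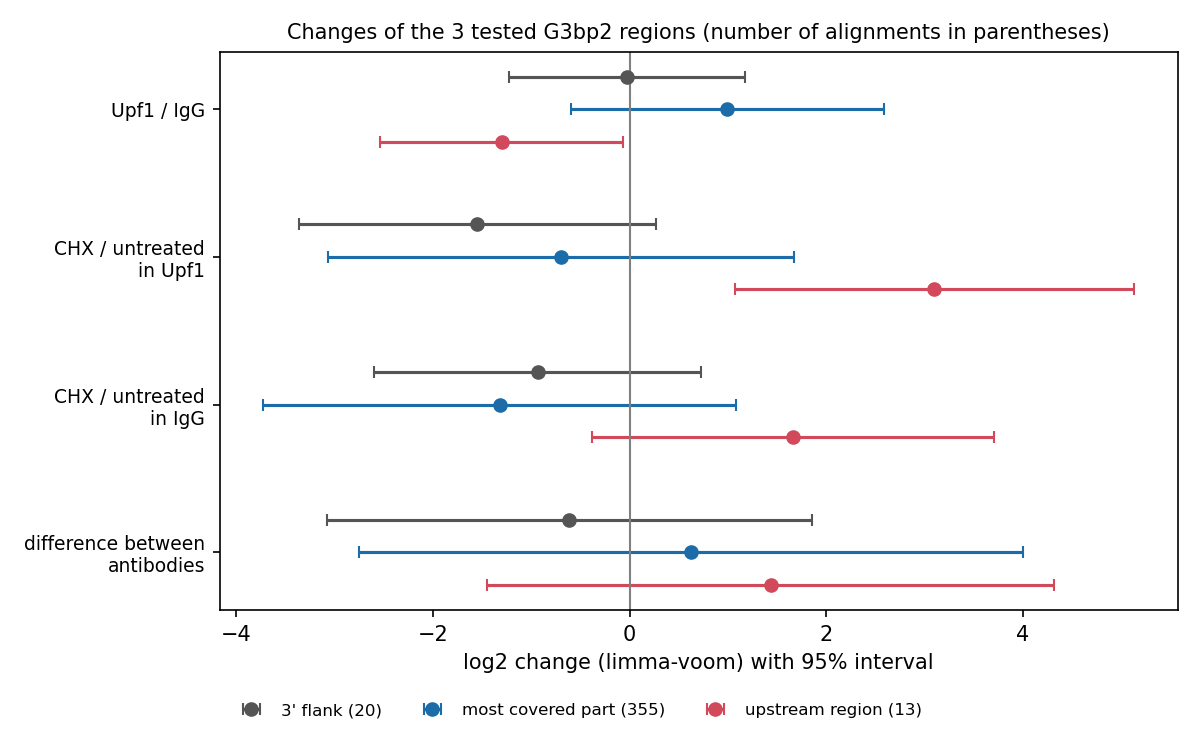
Fitted log2 change of the 3 tested G3bp2 regions in each comparison (CHX, cycloheximide), with 95% intervals from limma-voom. The region of 13 alignments (red) sits at 3.10 for cycloheximide in Upf1, where its adjusted p was 0.0582, and no region passed the threshold; the fitted change of the region of 20 alignments (grey) with cycloheximide rests on groups at 0 and is no bound.

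Pooled over libraries, short alignments were more frequent with cycloheximide at G3bp2, as they were library-wide. Alignments under 30 nt made up 13.7% of the 394 unspliced alignments in untreated libraries and 54.3% of the 70 in cycloheximide libraries. By library the share was 23.3% in Upf1 untreated A1, 18.2% in A2 and 10.4% in I, and 57.9% and 44.8% in Upf1 cycloheximide A1 and A2. With IgG it was 0% of 6 in untreated A1, 50% of 8 in A2, 4.21% of 95 in I, 75% of 4 in cycloheximide A1 and 61.1% of 18 in A2. In Upf1 untreated A1 the Wilson 95% interval at G3bp2, 16.7% to 31.7%, lay above the library-wide share of 15.1%. The interval of IgG untreated I, 1.65% to 10.3%, lay below its library-wide share of 12.1%. Intervals of the other libraries held their library-wide share. Library-wide, the share was 9.98% to 39.3% in untreated and 48.4% to 52.6% in cycloheximide libraries. Fragment length therefore moved with the treatment across the libraries as a whole, and its part in the shift along G3bp2 was not tested.

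**Figure D5:**
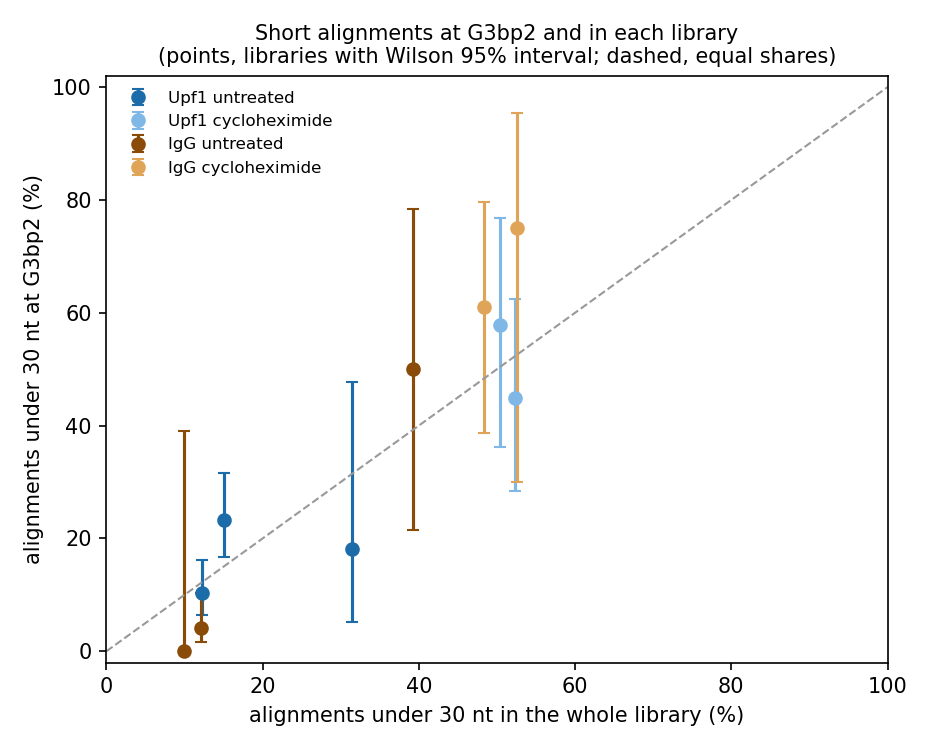
Percent of unspliced alignments under 30 nt at G3bp2 (vertical, with Wilson 95% interval) against the same percent over the whole library (horizontal). Points are the 10 libraries and the dashed line marks equal shares; the 4 cycloheximide libraries sit together at 48.4% to 52.6% on the horizontal axis.

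Copies of the same alignment were counted once, which bears on IgG untreated A1 most. There, 223 lines reduced to 6 distinct G3bp2 alignments, 37.2 lines each, with up to 113 lines at 1 position. Over that whole library the ratio was 22.1. In IgG untreated I it was 3.97 at G3bp2, and in the other 8 libraries it was 1 to 2. The 100% share of IgG untreated A1 therefore rests on 6 alignments (Wilson 95% interval 61.0% to 100%).

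Regions with a similar pattern over libraries were sought by the correlation of log2 rates with the most covered G3bp2 part. Over the 10 libraries, 414 regions with at least 30 alignments were compared, and their median Pearson r was 0.317. The highest were 12:87861881-87862566 on the plus strand (r = 0.885), 5:93601397-93602237 on the plus strand (0.884) and 3:95465825-95466801 on the plus strand (0.867). They were followed by 19:44380213-44380826 on the plus strand (0.867) and 17:46912027-46912614 on the minus strand (0.861). All 5 had at least 13 alignments in each of the 3 libraries with 34 nt reads and at most 1 in any other library. The points share read length and depth with these libraries, and the correlation is a description.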

How the data were processed

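Alignments of 10 CLIP libraries on mm9 were analysed. Bowtie 0.12.6, TopHat 1.4.0 and Cufflinks 1.3.0 are listed without roles, per the submitters' processing notes. In the deposited files the score column was 255 in every line and carried no measurement, so lines were tallied. Each distinct alignment was counted once per library; those spanning over 60 nt were taken as spliced. Locus rates and shares were compared by exact permutation (SciPy 1.17.1). Regions were fitted with limma-voom (limma 3.58.1, R 4.3.3) after scaling by the trimmed mean of M values (trims 30% and 5%), with treatment as covariate for Upf1 against IgG and a model of 4 groups otherwise. The methods were tested on simulated data. Windows named were the 3 highest per group with ties, and regions alike the 5 best correlated. Same-labelled libraries did not all deviate together from their group means (correlations -0.17 to 0.42). Between untreated Upf1 and IgG libraries the correlation was 0.42 for A2 and 0.34 for I. In groups of 2 libraries the deviations mirror each other, so the check says little there. Labels were not used as pairs in the main tests, and values with pairing are given below. No mm9 annotation was used here, so stress granule and decay gene lists and cell markers were not analysed. The locus and all lists were chosen with earlier results of these data known.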

Additional observations from a re-analysis of the deposited data

How the results depend on the processing

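The 4 locus tests and the fits of the most covered part gave 150 recomputed values. Of these, 135 kept their direction and side of the threshold, 14 changed sign and 1 newly fell under the threshold. That 1 was the cycloheximide difference in share with the part 1000 nt shorter, which is a description. The smaller tested regions are not in this count. The Upf1 minus IgG difference in locus rate was 4.49 with only libraries labelled A1 or A2, a setting chosen after seeing the data, and ran from -20.0 to 22.6 when 1 library was left out. The cycloheximide difference in rate was 9.78 with only 38 nt libraries, and the cycloheximide difference in 3′ end share was -25.4 points with the part 1000 nt shorter. With the part 1000 nt longer the share difference was -26.8 points and did not pass (exact permutation adjusted p = 0.08). The Upf1 minus IgG difference in share ran from -0.483 to 14.5 points with 1 library left out. For the most covered region, the log2 change with cycloheximide in Upf1 was 1.05 with only 38 nt libraries and ran from -1.27 to 0.18 with 1 library left out, and the difference between antibodies was -0.013 with no filter on regions, ran from -0.30 to 1.59 with 1 left out, and was 2.88 without shared molecules. With the replicate block, which pairs libraries by label, the log2 change in Upf1 was 0.028. The region of 13 alignments then had a limma-voom adjusted p of 0.0393 with cycloheximide in Upf1. That value is a description, since the region entered through the cycloheximide libraries. The blocked cycloheximide differences were -28.0 points in 3′ end share and -3.54 in locus rate. Shares could not be tested without shared molecules or with unspliced alignments only, since a library then held fewer than 5 G3bp2 alignments. Except where an alternative by its construction held fewer libraries or a shorter part, the cause was not tested. Depth limits what can be seen: 5 of the 10 libraries held 5 to 18 G3bp2 alignments each.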
